A study of Mus musculus with 15 samples.

Results

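Rapamycin and cycloheximide were compared in mouse fibroblasts given PDGF. The comparison took 6 of the 15 libraries of the series, chosen by their sample titles: 3 of H2A-mCherry cells given rapamycin and PDGF, and 3 of H2A-mCherry cells given cycloheximide and PDGF. It was made over every mouse gene, by summing the deposited transcript counts of a gene, and 10603 genes had enough reads to be tested. The 3 libraries of H2A-mCherry cells given PDGF alone were used to show how far each drug moved a gene.

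The cells of all 3 groups were NIH3T3, an established line of mouse embryonic fibroblasts, stably carrying H2A-mCherry, histone H2A joined to a red fluorescent protein and switched on with doxycycline, which the study used as the control for H2A-TerminaTOR, its inhibitor of mTORC1 in the nucleus. Cells were starved before PDGF, a growth factor that drives fibroblasts out of rest. The 3 groups come from this one stable line, and drug doses and times are not given in the labels. The question was which RNA changes belong to inhibition of mTORC1 and which to a general stop of protein synthesis.

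mTORC1 is a kinase complex that senses growth factors and amino acids and promotes ribosome production, translation, and lipid and nucleotide synthesis. Rapamycin binds the small protein FKBP12, and the pair inhibits mTORC1, which lowers the translation of some messenger RNAs more than of others. Cycloheximide binds the ribosome and stops elongation on nearly all messenger RNAs, so that short-lived proteins disappear, and immediate early messenger RNAs, whose decay and shut-off need new protein, are known to accumulate under it.

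The libraries with rapamycin held 3799195, 3494761 and 4652663 counts, and those with cycloheximide 5302795, 4343791 and 5579478. Mitochondrially encoded genes took 9.84% to 11% of the counts with rapamycin, against 6.27% to 6.64% with cycloheximide. Fibroblast markers summed to 6130 to 6387 CPM (reads relative to the scaled library total, the unit of level below) with rapamycin, 9084 to 9417 CPM with cycloheximide and 8812 to 9232 CPM with PDGF alone. Between the drugs 2 of the 9 tested were higher with rapamycin and 4 lower. All 10 fibroblast markers had reads with rapamycin. Macrophage markers summed to 16.9 to 18.8 CPM with rapamycin, 17.8 to 26.1 CPM with cycloheximide and 16 to 18.9 CPM with PDGF alone. Epithelial markers summed to 0.475 to 1.538 CPM with rapamycin, 2.275 to 3.073 CPM with cycloheximide and 0.8285 to 3.877 CPM with PDGF alone. The 1 epithelial marker tested was lower with rapamycin (log2 change −1.891). The macrophage markers *Adgre1* and *Itgam* and the epithelial markers *Epcam*, *Krt18* and *Krt19* had no read in any library of either drug or of PDGF alone. The beta-actin gene *Actb* had only 0 to 2 reads a library here, so a gene without reads need not be silent. Nothing in the labels ties a replicate to its own culture, so p-values measure only the spread between these samples. In bulk RNA, fewer cells of a kind and less RNA per cell cannot be told apart.

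The drugs differed in 5988 genes. With rapamycin 2908 genes were higher (27.4% of the 10603) and 3080 were lower (29%) than with cycloheximide by edgeR's quasi-likelihood test at an adjusted p under 0.05 (56.5% in all). Of these, 1715 were at least 2-fold higher and 1662 at least 2-fold lower, and the median log2 change over all genes was −0.0042. The libraries of the drugs did not overlap for 6362 genes (60%). Against PDGF alone, 1724 genes were higher and 1706 lower with rapamycin (32.3% called), and 2231 higher and 2079 lower with cycloheximide (40.6% called). The libraries did not overlap for 40.9% of genes between rapamycin and PDGF alone, and for 50.6% between cycloheximide and PDGF alone. Scaling by library size moved the median of all genes to −0.102 for rapamycin and −0.13 for cycloheximide against PDGF alone, and the splits to 1260 higher and 2265 lower and to 1713 and 2677. Between the drugs it left the median at 0.00612. Every count below is to be read against these high shares of called genes.

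**Figure D1:**
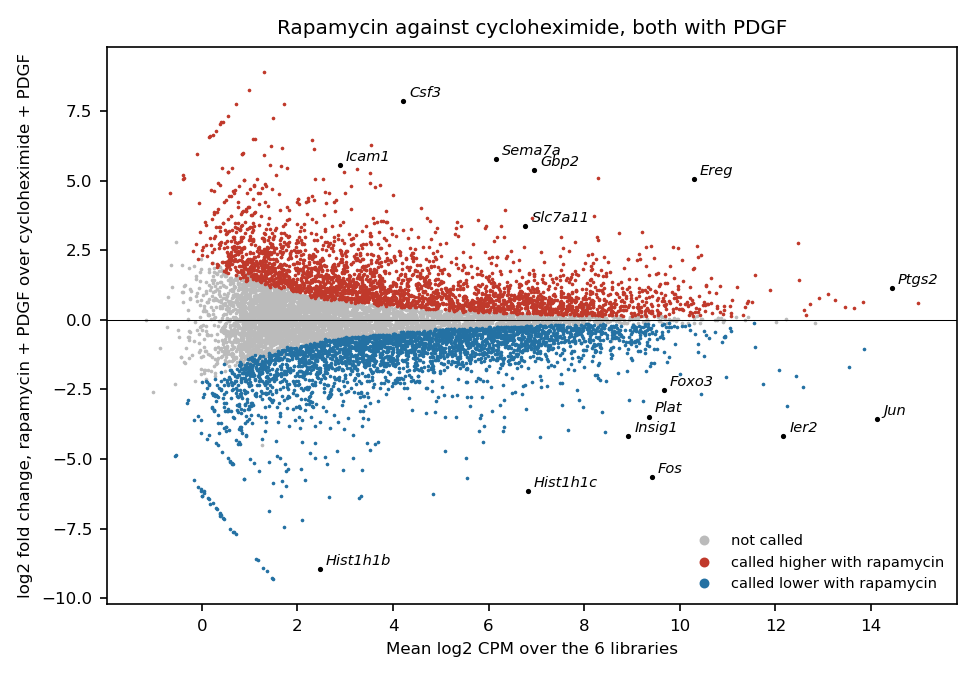
Each point is a gene, with its mean log2 CPM over the 6 libraries on the x axis and its log2 fold change, rapamycin over cycloheximide, on the y axis. Called genes (red higher, blue lower with rapamycin) lie on both sides of 0, with *Csf3*, *Gbp2* and *Ereg* far above and *Hist1h1b*, *Hist1h1c* and *Fos* far below; diagonal streaks at low level are genes with almost no reads in one group, whose fold is a fitted value.

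Genes of cytokines, adhesion molecules and other NF-kB targets were higher with rapamycin. NF-kB is a transcription factor family held in the cytoplasm by inhibitors that are themselves among its target genes. Of 31 genes listed, 20 were tested, 18 were called higher and none lower, with a median log2 change of 3.02 (median over all genes −0.0042). The gene with the largest rise in the list, *Csf3* (ENSMUSG00000038067.2, GRCm38 chromosome 11, 98701263 to 98703629), encodes the granulocyte growth factor G-CSF and had 232, 229.8 and 246 CPM with rapamycin, against 0.827, 1.26 and 0.9604 CPM with cycloheximide. Every rapamycin library stood far above every cycloheximide library, and the fold was 229.6 (log2 change 7.84 ± 0.22 SE, edgeR adjusted p = 2.98e-43).

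*Gbp2*, an interferon-inducible GTPase gene, had 666, 867 and 826 CPM with rapamycin and 18.6, 18.9 and 19.6 CPM with cycloheximide. *Ptx3*, which encodes a secreted pentraxin of innate immunity, had 1725, 1914 and 1844 CPM with rapamycin, against 52.7, 52.7 and 53.8 CPM with cycloheximide. *Vcam1*, a leukocyte adhesion molecule gene, had 1535, 1891 and 1862 CPM with rapamycin and 208, 195 and 196 CPM with cycloheximide. None of these genes overlapped between the drugs, and the folds were 41.2, 34.4 and 8.82 (edgeR adjusted p = 5.81e-54, 4.83e-57 and 5.33e-50). The adhesion gene *Icam1* was 47.04-fold higher, *Lif*, a cytokine of the IL-6 family, 78.01-fold, the macrophage growth factor gene *Csf1* 8.47-fold and complement *C3* 9.897-fold. *Csf2*, which encodes GM-CSF, had 47 reads with rapamycin and 2 with cycloheximide (ratio 29.8, 95% counting interval 7.80 to 253), and the collagenase gene *Mmp13* 98 against 1 (ratio 124, interval 21.8 to 4955).

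Chemokine genes of the list varied. *Ccl7* averaged 400.4 ± 34.7 CPM with rapamycin and 204 ± 7.42 CPM with cycloheximide (SD, n = 3), against 60.9 ± 3.51 CPM with PDGF alone. *Cxcl1* was 1.68-fold and *Ccl2* 3.89-fold higher with rapamycin (edgeR adjusted p = 0.00203 and 2.3e-06), and nearly all of their reads (100% and 98.2%) came from transcripts annotated as retained intron. *Ccl7*, *Cxcl1* and *Ccl2* were above PDGF alone under either drug, by log2 changes of 2.72, 2.67 and 3.62 with rapamycin and 1.74, 1.91 and 1.67 with cycloheximide. *Cx3cl1*, the gene of a membrane-bound chemokine, averaged 10.6 ± 4.47 CPM with rapamycin, 10.7 ± 3.101 CPM with cycloheximide and 16.99 ± 3.36 CPM with PDGF alone, did not pass between the drugs (edgeR adjusted p = 0.999) and was lower than with PDGF alone under each (adjusted p = 0.0445 with rapamycin and 0.0311 with cycloheximide), with libraries that overlap. *Cxcl12*, a chemokine gene with few reads in any library, passed none of these 3 tests. The comparisons of each drug with PDGF alone share the PDGF libraries. Over the whole list, the medians against PDGF alone were 3.21 with rapamycin (17 higher and 1 lower of 20) and 0.10 with cycloheximide (6 higher and 7 lower), and the cycloheximide median was negative under library-size scaling.

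Genes of the NF-kB subunits and their inhibitors were mostly higher under each drug than with PDGF alone. Of 13 tested, 11 were higher and none lower with rapamycin (median 1.76), and 8 were higher and 1 lower with cycloheximide (median 1.46). *Nfkbia* (ENSMUSG00000021025.8, GRCm38 chromosome 12, 55489410 to 55492647), which encodes the inhibitor IkB-alpha, had 213, 183 and 225 CPM with rapamycin, against 164, 185 and 175 CPM with cycloheximide and 35.3, 38.5 and 30.4 CPM with PDGF alone. Between the drugs the libraries overlapped, and the 1.19-fold difference passed the test (edgeR adjusted p = 0.0135) but not without the filter on low counts (adjusted p = 0.127), without rapamycin replicate 3 (adjusted p = 0.133) or without cycloheximide replicate 1 (adjusted p = 0.0578). *Nfkb1*, a subunit gene, was 10.4-fold higher with rapamycin at 247 ± 28.4 CPM, against 23.5 ± 4.06 CPM with cycloheximide, with 98.8% of its reads on retained-intron transcripts. Between the drugs 6 of the 13 genes were higher with rapamycin and 2 lower, with a median of 0.25, which lay between 0.176 (without rapamycin replicate 3) and 0.484 (without cycloheximide replicate 1) when each library was left out. *Zc3h12a*, which encodes an endonuclease that degrades cytokine messenger RNAs, was 2.77-fold higher with rapamycin.

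Promoters were read from RefSeq on GRCm38.p6, 250 bases before to 50 after each gene's start, for 7051 of the tested genes. The NF-kB consensus, searched on both strands with overlapping matches kept, was present in 7 of 11 promoters of the subunit and inhibitor list (63.6%) and 5 of 14 of the cytokine list (35.7%), against 4.35% of all 27025 promoters. Both lists were drawn up around NF-kB, so a high share in them follows from their choice and says nothing about the drugs. The consensus was present in 5.72% of the 1118 promoters of genes at least 2-fold higher with rapamycin and 5.02% of the 1155 at least 2-fold lower, near the 5.11% of all tested genes. Among genes of the cytokine list with large rises, *Ptx3* and *Csf1* held a match in this window. *Icam1*, *Gbp2*, *Lif*, *C3*, *Csf2* and *Mmp13* held none. The promoters of *Nfkbia* and *Cxcl1*, both above PDGF alone under each drug, are shown as examples with a match. The bases of the consensus are in capitals (for *Cxcl1*, the matches overlap by all but 1 base).
Nfkbia (GRCm38.p6 chr12:55492598-55492897, strand -): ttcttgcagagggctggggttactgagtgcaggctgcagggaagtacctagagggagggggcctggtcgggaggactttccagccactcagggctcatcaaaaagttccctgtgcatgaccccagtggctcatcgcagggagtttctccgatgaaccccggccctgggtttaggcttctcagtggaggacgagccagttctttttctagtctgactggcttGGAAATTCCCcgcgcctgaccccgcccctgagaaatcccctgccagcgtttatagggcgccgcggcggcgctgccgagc
Cxcl1 (GRCm38.p6 chr5:90890995-90891294, strand +): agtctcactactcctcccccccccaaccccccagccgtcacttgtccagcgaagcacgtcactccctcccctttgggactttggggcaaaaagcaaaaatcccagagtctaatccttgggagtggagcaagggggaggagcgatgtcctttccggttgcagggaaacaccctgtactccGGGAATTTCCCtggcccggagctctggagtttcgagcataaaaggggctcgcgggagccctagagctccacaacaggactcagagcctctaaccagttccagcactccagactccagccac

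**Figure D2:**
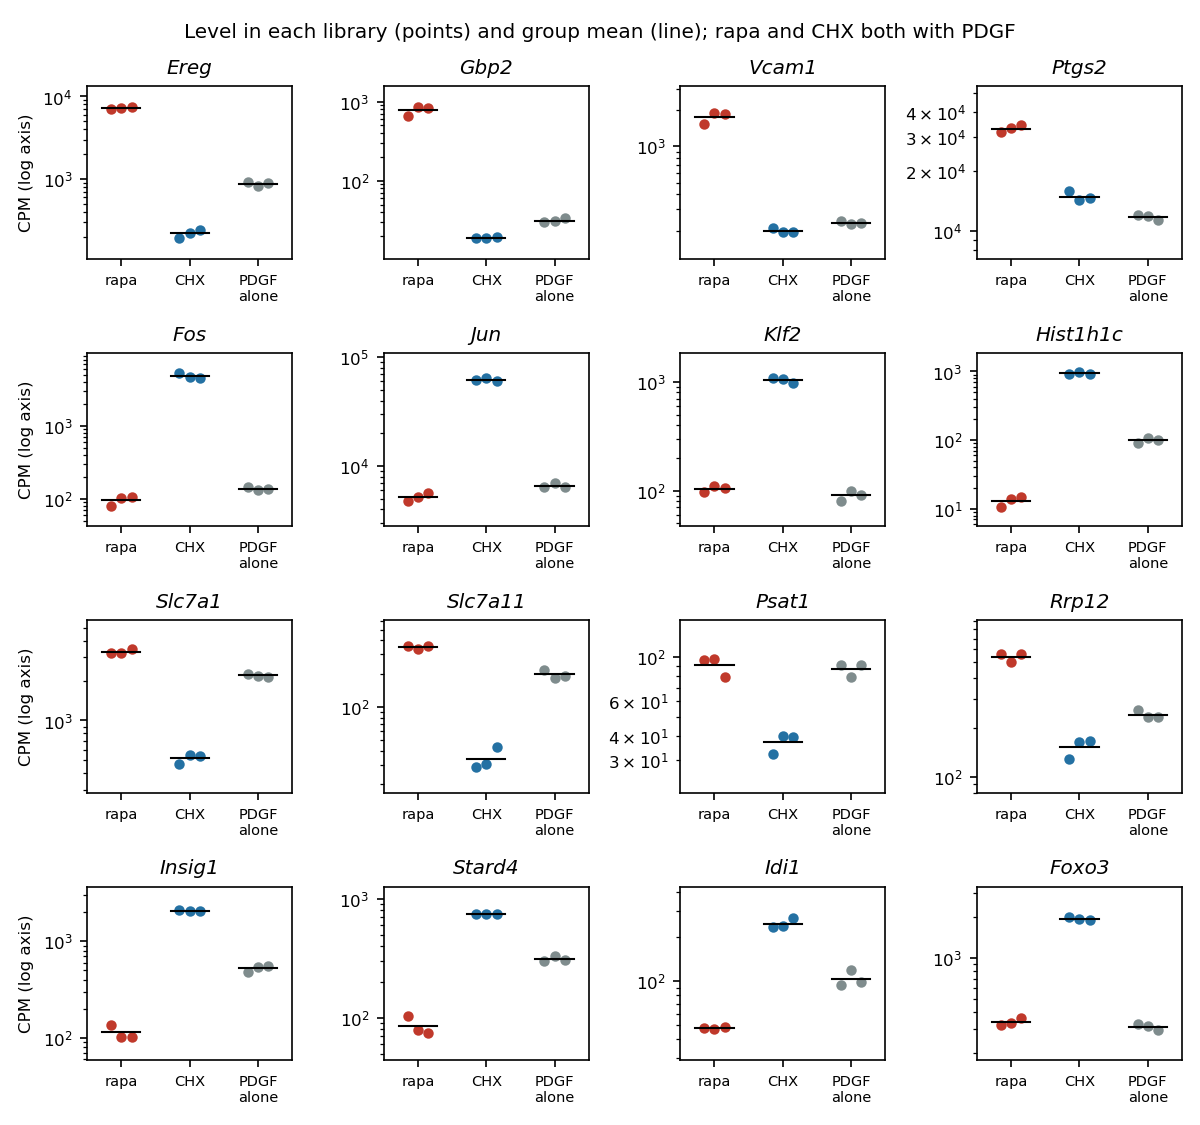
Level in CPM of 16 genes in each of the 9 libraries (log y axes), with rapamycin left (red), cycloheximide in the middle (blue) and PDGF alone right (grey); points are libraries and lines group means. *Ereg*, *Gbp2*, *Vcam1* and *Ptgs2* are highest with rapamycin, and *Fos*, *Jun*, *Klf2*, *Hist1h1c*, *Insig1*, *Stard4*, *Idi1* and *Foxo3* highest with cycloheximide.

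Genes of secreted and surface proteins outside the cytokine list included several of the largest rises. *Ereg* (ENSMUSG00000029377.5, GRCm38 chromosome 5, 91074622 to 91093646), which encodes the EGF receptor ligand epiregulin, had 6967, 7314 and 7443 CPM with rapamycin, against 193, 220.4 and 242 CPM with cycloheximide and 912, 814 and 905 CPM with PDGF alone. Rapamycin lay above and cycloheximide below PDGF alone, and between the drugs *Ereg* was 33.1-fold higher (log2 change 5.05 ± 0.15 SE, edgeR adjusted p = 3.5e-11). *Sema7a*, a membrane-bound semaphorin gene, had 573, 454 and 525 CPM with rapamycin and 9.93, 9.58 and 8.64 CPM with cycloheximide, and was 55.1-fold higher with rapamycin. With PDGF alone *Sema7a* averaged 119.8 ± 15.9 CPM, so the libraries of the 3 treatments did not overlap.

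The hormone gene *Stc1* was 33.2-fold higher with rapamycin, tenascin C (*Tnc*), a matrix glycoprotein, 10.4-fold, the PDGF receptor gene *Pdgfra* 9.12-fold, and *Dcn*, the proteoglycan decorin, 22.2-fold, with 71.1% of its reads on retained-intron transcripts. *Olr1*, a scavenger receptor for oxidised lipoprotein, was 69.8-fold higher and *Il23a*, a cytokine subunit, 45.7-fold. Genes at 1 or 2 reads with cycloheximide were *Slfn2* (171 against 1 read, ratio 217, 95% counting interval 38.4 to 8610), the musculoskeletal hormone gene *Ostn* (99 against 1, ratio 126, interval 22.0 to 5005) and the receptor gene *Hcar2* (114 against 2, ratio 72.2, interval 19.6 to 604). Growth factors and their receptors moved both ways, 10 of 22 higher with rapamycin and 4 lower, with a median of 0.73. *Edn1*, which encodes the vasoconstrictor endothelin-1, had 3 reads with rapamycin and 142 with cycloheximide (ratio 0.0268, interval 0.00546 to 0.0799).

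Interferon-response genes split. *Ifit1*, an antiviral RNA-binding protein gene, had 6.13, 9.23 and 4.51 CPM with rapamycin, against 151, 188 and 165 CPM with cycloheximide, and was 25.9-fold lower with rapamycin (edgeR adjusted p = 1.82e-35). *Gbp7* was 6.47-fold and *Ifitm3*, which blocks virus entry, 4.74-fold higher with rapamycin. Of 10 genes tested, 5 were higher and 4 lower.

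Immediate early genes, the transcription factor and feedback genes that growth factors switch on first, were mostly lower with rapamycin. Of 31 tested, 20 were lower and 6 higher, with a median of −0.55. *Fos* (ENSMUSG00000021250.13, GRCm38 chromosome 12, 85473890 to 85477273), an AP-1 subunit gene, had 79.1, 102 and 108 CPM with rapamycin, against 5382, 4694 and 4501 CPM with cycloheximide. Every cycloheximide library stood far above every rapamycin library, and *Fos* was 50.4-fold lower with rapamycin (log2 change −5.65 ± 0.11 SE, edgeR adjusted p = 2e-20). With PDGF alone *Fos* had 146, 134 and 138 CPM, above the rapamycin libraries and far below those with cycloheximide.

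Most other AP-1 genes were lower too. *Jun* had 4802, 5156 and 5629 CPM with rapamycin, against 62224, 63999 and 60013 CPM with cycloheximide, and was 11.9-fold lower. *Jund* was 16.5-fold lower, *Junb* 4.08-fold and *Fosb* 21.1-fold (100% of *Fosb* reads on a retained-intron transcript), while *Fosl1* did not pass the test (log2 change −0.01 ± 0.32 SE, edgeR adjusted p = 0.977). *Ier2*, a nuclear regulator, had 955, 1196 and 1099.7 CPM with rapamycin and 20524, 19759 and 18533 CPM with cycloheximide, an 18.1-fold difference. Among Krüppel-like factors, *Klf2* was 9.99-fold and *Klf6* 4.99-fold lower with rapamycin, and *Klf4* 1.42-fold. *Egr2* was 9.75-fold lower at 3.14 ± 0.682 CPM with rapamycin, against 30.3 ± 3.85 CPM with cycloheximide, and *Egr4* had 2 reads with rapamycin and 235 with cycloheximide (ratio 0.0108, interval 0.00130 to 0.0394).

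Immediate early genes higher with rapamycin included *Ptgs2*, which encodes the prostaglandin synthase COX-2. *Ptgs2* had 31685, 32999 and 34231 CPM with rapamycin, 15834, 14258 and 14550.5 CPM with cycloheximide and 11969, 11825 and 11357 CPM with PDGF alone. It was 2.22-fold higher with rapamycin, with no overlap (edgeR adjusted p = 3.81e-29). *Plk2*, a kinase gene, was 1.52-fold higher with rapamycin and *Ier3*, a survival factor gene, 1.43-fold higher, which for *Ier3* did not pass without the filter on low counts (edgeR adjusted p = 0.0871). Against PDGF alone, 24 of the 31 genes were higher and 4 lower with cycloheximide (median 1.51), and 12 were higher and 8 lower with rapamycin (median 0.18, or 0.0495 under library-size scaling).

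Feedback inhibitors of the MAPK pathway split between the drugs, 8 of 15 higher with rapamycin and 6 lower. *Spred1*, which holds back RAS signalling, had 1538, 1779.7 and 1767 CPM with rapamycin, against 276, 265 and 272 CPM with cycloheximide, and was 6.25-fold higher. The phosphatase gene *Dusp5* was 2.44-fold higher, and *Spry2* and *Spry4* 1.298-fold and 1.31-fold. *Dusp1*, a phosphatase of stress-activated kinases, had 1.67, 0 and 0.713 CPM with rapamycin and 16.96, 15.6 and 19.98 CPM with cycloheximide, with 91.05% of its reads on retained-intron transcripts, and *Dusp16* was 5.13-fold lower with rapamycin.

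Among other regulators, *Id4* and *Id3*, which encode inhibitors of DNA binding, were 22.2-fold and 7.69-fold lower with rapamycin. *Tob1*, which recruits the deadenylase that shortens poly(A) tails, had 33.4, 27.7 and 32.3 CPM with rapamycin, against 600.0, 561 and 569.7 CPM with cycloheximide, an 18.4-fold difference without overlap. *Plat*, which encodes the tissue plasminogen activator, had 187, 200.2 and 201 CPM with rapamycin and 2342, 2141 and 2061 CPM with cycloheximide, and was 11.1-fold lower. *Ccn1*, a matricellular protein gene, was 3.52-fold lower, with both drugs above PDGF alone (log2 changes 1.43 with rapamycin and 3.24 with cycloheximide). *Iqcn*, among the 12 largest falls, averaged 0.9398 ± 0.407 CPM with rapamycin and 75.02 ± 4.39 CPM with cycloheximide. SRF and MRTF target genes, which encode parts of the actin cytoskeleton, were lower with rapamycin in 8 of 14 and higher in 2 (median −0.54), and among them the smooth muscle actin gene *Acta2* was 2.68-fold lower.

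An AU-rich element, here the letters ATTTATTTA on the sense strand of the 3′ UTR, marks many short-lived messenger RNAs for decay. It was present in 564 of the 7836 tested genes with an annotated 3′ UTR (7.2%), in 7.35% of the 1170 genes at least 2-fold higher with rapamycin, and in 5.95% of the 1312 at least 2-fold lower. By list it was present in 4 of 15 MAPK feedback inhibitors (26.7%), 3 of 19 cytokines and NF-kB targets (15.8%) and 3 of 28 immediate early genes (10.7%). The first site in each of 4 genes that moved in opposite directions is shown, in capitals with 10 bases on each side (GRCm38, GENCODE annotation). In *Ptgs2* a second match overlaps the first and runs into the bases in lower case. Sites were read from protein-coding transcripts, while most *Dusp1* reads lay on retained-intron transcripts.
Ptgs2 (chr1:150105788-150105816, strand +): tactgaccatATTTATTTAtttatgtgaa
Csf2 (chr11:54247360-54247388, strand -): ggaccattatATTTATTTAtatatttata
Fos (chr12:85477101-85477129, strand +): tgtgttttcaATTTATTTAttaagatgga
Dusp1 (chr17:26506157-26506185, strand -): gctggtccttATTTATTTAacacccccct

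Replicative histone genes, which supply new chromatin in S phase and whose messenger RNAs normally end in a stem-loop in place of a poly(A) tail, were lower with rapamycin. All 40 tested were called lower (29% of all genes tested), none overlapped, and 35 of them lie on chromosome 13. Their median log2 change was −5.40, or −5.05 with the 8 genes without a read under rapamycin set to their bound. Their summed level was 67.7 to 79.4 CPM with rapamycin, against 2267 to 2474 CPM with cycloheximide. It was 212 to 246 CPM with PDGF alone, 142 to 149 CPM in the same line without PDGF and 1575 to 1846 CPM in the TerminaTOR line with cycloheximide and PDGF. The sum was lowest with rapamycin and highest in both groups that received cycloheximide. Tested were 5 of 5 listed H1 genes, 5 of 19 H2A, 9 of 18 H2B, 9 of 12 H3 and 11 of 13 H4. A gene could pass the filter for low counts on its cycloheximide reads, as *Hist1h2ab* with 0 reads under rapamycin and 31 under cycloheximide. For such genes only a fall could be seen, so the count of 40 rests in part on the filter. The libraries were made from total RNA by capture on poly-T beads, and reads of near-identical histone copies may be assigned to either copy.

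The linker histone gene *Hist1h1c* (ENSMUSG00000036181.2, GRCm38 chromosome 13, 23738808 to 23740367) had 10.6, 13.8 and 14.96 CPM with rapamycin, against 933, 988 and 909 CPM with cycloheximide and 89.5, 107 and 100.5 CPM with PDGF alone. It was 71.3-fold lower with rapamycin (log2 change −6.16 ± 0.10 SE, edgeR adjusted p = 5.34e-57). *Hist1h4i* had 4.46, 3.38 and 1.66 CPM with rapamycin and 264, 237 and 219.5 CPM with cycloheximide, a 77.3-fold difference, and the histone H3 gene *Hist1h3d* was 83.4-fold lower. *Hist1h1b* had 1 read with rapamycin and 814 with cycloheximide (ratio 0.00156, 95% counting interval 3.94e-05 to 0.00870), and *Hist1h2bk* 2 and 430 (ratio 0.00590, interval 0.000712 to 0.0214). *Hist1h2ad* (0 and 202 reads) was at least 53.1-fold lower with rapamycin, *Hist1h2ah* (0 and 149) at least 39.2-fold and *Hist1h4m* (0 and 154) at least 40.5-fold, against a floor of 3 reads over the group.

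Against PDGF alone, 39 of the 40 were higher with cycloheximide and none lower, a count on which the filter also bears. With rapamycin 1 was higher and 11 were lower, among them *Hist1h1c* (log2 change −2.91, edgeR adjusted p = 1.02e-33). Replacement histone genes, whose messenger RNAs are polyadenylated, were lower with rapamycin in 6 of 9 and higher in 2. *H1f0*, the linker histone of resting cells, had 221, 201 and 232 CPM with rapamycin and 1618, 1732 and 1563 CPM with cycloheximide, and was 7.49-fold lower. *H3f3b*, one of the genes for histone H3.3, was 14.7-fold lower at 1.57 ± 1.301 CPM with rapamycin, against 23.2 ± 2.105 CPM with cycloheximide.

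The stem-loop was found in 28 annotated transcripts of the tested histone genes, and in 17 of those over 100 bases of the annotated transcript follow it. The sites of histones with large differences are shown on GRCm38, with the stems and loop in capitals. *Hist1h1c* has 840 bases after it in its annotated transcript and *Hist1h4i* 330, against 42 in *Hist1h2ad*, and all were lower with rapamycin. CCAAT, searched on both strands, was present in 27 of 34 histone promoters (79.4%), against 37.9% of all promoters.
Hist1h1c (chr13:23739507-23739532, strand +): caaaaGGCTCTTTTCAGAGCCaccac
Hist1h3d (chr13:23576239-23576264, strand +): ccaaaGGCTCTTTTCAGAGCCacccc
Hist1h4i (chr13:22040961-22040986, strand -): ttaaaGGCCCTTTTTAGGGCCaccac
Hist1h2ad (chr13:23574890-23574915, strand +): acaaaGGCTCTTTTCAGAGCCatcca

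**Figure D3:**
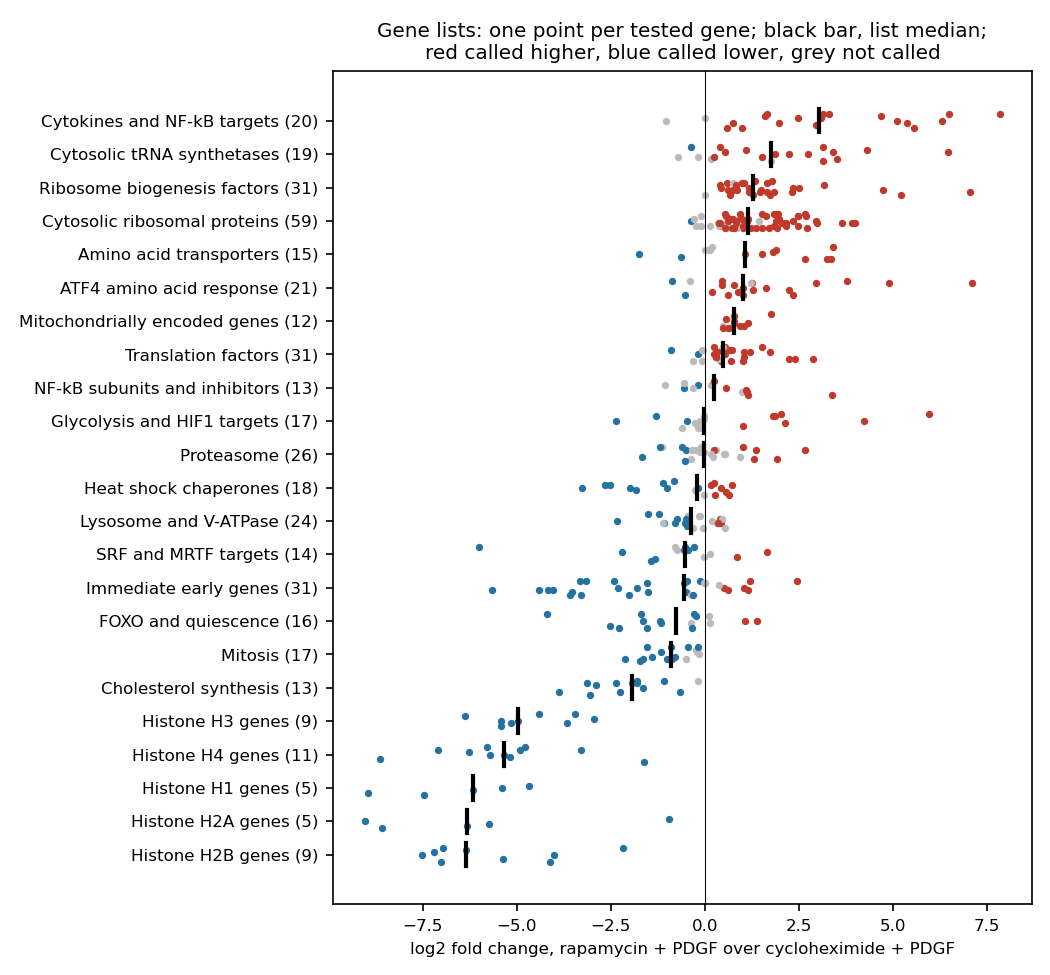
log2 fold change (x axis), rapamycin over cycloheximide, of every tested member of 23 gene lists (y axis, number tested in brackets); points are genes, red called higher and blue called lower with rapamycin, grey not called, and bars are list medians. Cytokine, translation and amino acid lists lie right of 0 and cholesterol and histone lists left of it; histone genes without a read under rapamycin are drawn at fitted values.

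Genes of amino acid supply were higher with rapamycin. ATF4, a transcription factor that is itself made under control of translation, drives amino acid synthesis, import and charging, and mTORC1 raises its protein. Of 21 genes tested of an ATF4 response list, which includes *Atf4* itself, 17 were higher with rapamycin and 2 lower, with a median of 1.02. *Psat1*, an enzyme gene of serine synthesis, had 96.9, 97.2 and 79.1 CPM with rapamycin, against 32.5, 39.8 and 39.4 CPM with cycloheximide and 91.2, 79.6 and 91.3 CPM with PDGF alone. The rapamycin libraries overlapped those with PDGF alone and lay above all those with cycloheximide (2.44-fold, edgeR adjusted p = 2.07e-15).

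*Mthfd2*, of mitochondrial folate metabolism, was 3.05-fold higher with rapamycin, *Chac1*, which degrades glutathione, 2.02-fold, the translation repressor gene *Eif4ebp1* 4.701-fold and *Trib3*, a pseudokinase gene, 1.71-fold. *Asns*, which makes asparagine, averaged 5.25 ± 2.49 CPM with rapamycin and 0.385 ± 0.322 CPM with cycloheximide, and *Psph*, of serine synthesis, 9.13 ± 2.27 CPM with rapamycin and 0.271 ± 0.318 CPM with cycloheximide. *Ddit3*, which encodes the stress factor CHOP, was 1.84-fold lower with rapamycin with 89.7% of its reads on retained-intron transcripts, and did not pass on protein-coding transcripts alone (edgeR adjusted p = 0.233). Against PDGF alone, 18 of the 21 were lower and 1 higher with cycloheximide (median −1.27), and 7 were lower and 4 higher with rapamycin (median −0.24, or −0.371 under library-size scaling). *Chac1* and *Trib3* were lower than with PDGF alone under each drug, by 0.72 and 0.64 on the log2 scale with rapamycin and by 1.74 and 1.41 with cycloheximide.

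Amino acid transporter genes were higher with rapamycin in 8 of 15 and lower in 2. *Slc7a1*, the arginine and lysine carrier, had 3209.6, 3249 and 3447 CPM with rapamycin, against 471, 551 and 539 CPM with cycloheximide, and was 6.35-fold higher without overlap (edgeR adjusted p = 1.38e-48). *Slc7a5*, a carrier of large neutral amino acids, was 3.67-fold and *Slc7a11*, the cystine carrier, 10.2-fold higher, all 3 also above PDGF alone with rapamycin (log2 changes 0.60, 0.32 and 0.83). The glutamine carrier gene *Slc1a5* was 10.5-fold higher (42.2% of reads on retained-intron transcripts) and the glycine carrier gene *Slc6a9* 9.42-fold. *Slc38a2*, another glutamine carrier gene, did not pass the test at 1770.0 ± 109 CPM with rapamycin and 1762 ± 23.7 CPM with cycloheximide (edgeR adjusted p = 0.926), but did on protein-coding transcripts alone (log2 change 0.18, adjusted p = 0.000804).

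Genes of cytosolic tRNA synthetases, which join amino acids to their transfer RNAs, were higher in 14 of 19 with rapamycin and lower in 1, with a median of 1.75. *Tars*, for threonine, had 34.3, 29.8 and 36.8 CPM with rapamycin, 0.414, 0 and 0.576 CPM with cycloheximide and 30.3, 21.2 and 23.4 CPM with PDGF alone. The level with rapamycin was near that with PDGF alone, and that with cycloheximide near 0. The 87.9-fold difference rested on retained-intron transcripts, which held 100% of the reads, and such transcripts held 60.8% of those of *Nars* (19.6-fold) and 58.9% of those of *Cars* (11.3-fold). *Yars* and *Gars*, with 90.5% and 99.8% of reads on protein-coding transcripts, were 2.86-fold and 2.14-fold higher (edgeR adjusted p = 4.25e-27 and 2.32e-27). On protein-coding transcripts alone, 9 of 11 synthetase genes were higher and none lower (median 1.28). In the ATF4 list 16 of 19 genes were higher and none lower (median 1.20). Of all genes so tested, 30.2% were higher.

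The C/EBP-ATF response element, searched as TGATGNAA on both strands, was present in 5 of 12 synthetase promoters (41.7%) and 5 of 20 promoters of the ATF4 list (25%), against 4.06% of all promoters. The ATF4 list was drawn up around ATF4 targets, so a high share in it follows from its choice. The element was present in 3.13% of promoters of genes at least 2-fold higher and 2.51% of those at least 2-fold lower with rapamycin. Among promoters of all tested genes the share was 2.35%. The promoters of *Asns* and *Tars* are shown with the element in capitals.
Asns (GRCm38.p6 chr6:7693160-7693459, strand -): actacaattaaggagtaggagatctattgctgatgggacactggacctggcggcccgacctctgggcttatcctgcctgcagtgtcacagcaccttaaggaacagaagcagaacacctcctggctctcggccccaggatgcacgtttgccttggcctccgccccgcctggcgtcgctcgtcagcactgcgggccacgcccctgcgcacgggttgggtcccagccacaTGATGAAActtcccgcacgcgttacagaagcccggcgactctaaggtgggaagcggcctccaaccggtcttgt
Tars (GRCm38.p6 chr15:11399609-11399908, strand -): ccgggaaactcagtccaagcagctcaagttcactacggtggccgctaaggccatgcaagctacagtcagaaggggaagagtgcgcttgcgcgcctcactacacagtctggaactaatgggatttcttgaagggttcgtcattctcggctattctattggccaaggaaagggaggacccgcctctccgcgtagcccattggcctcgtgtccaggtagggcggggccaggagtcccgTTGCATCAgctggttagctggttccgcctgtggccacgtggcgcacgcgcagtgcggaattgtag

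Genes for making ribosomes, which mTORC1 promotes, were higher with rapamycin. Of 31 ribosome biogenesis factors tested, 29 were higher and none lower, with a median of 1.29. *Rrp12*, which exports ribosomal subunits from the nucleus, had 563, 504 and 561 CPM with rapamycin, against 128, 162 and 166 CPM with cycloheximide and 256, 231 and 231 CPM with PDGF alone. The 3 treatments did not overlap, with rapamycin highest and cycloheximide lowest, and the drugs differed 3.57-fold (edgeR adjusted p = 2.09e-33). The nucleolar helicase gene *Ddx21* was 2.82-fold, *Noc3l*, a factor for the large subunit, 3.42-fold and nucleolin (*Ncl*) 1.51-fold higher. *Rrp1b* was 36.7-fold higher (89.2% of reads on retained-intron transcripts), and *Gnl3*, which encodes nucleostemin, 8.99-fold higher with 100% of its reads on retained-intron transcripts. Against PDGF alone, 23 of the 31 were higher and none lower with rapamycin (median 0.72), and 23 were lower and 1 higher with cycloheximide (median −0.55). On protein-coding transcripts alone, all 26 tested were higher with rapamycin.

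Genes of cytosolic ribosomal proteins were higher with rapamycin in 46 of 59 tested and lower in 1 (median 1.13), out of 91 listed. *Rps19* averaged 33.4 ± 5.93 CPM with rapamycin and 2.22 ± 1.83 CPM with cycloheximide, and was 15.9-fold higher, with 66.3% of its reads on retained-intron transcripts. *Rpl4* averaged 191 ± 20.6 CPM with rapamycin and 86.5 ± 9.97 CPM with cycloheximide, and *Rplp0* 215 ± 38.4 CPM with rapamycin and 131 ± 2.76 CPM with cycloheximide, and these were named after their values were seen, because protein-coding transcripts held all of their reads. The deposited counts are per transcript, and HTSeq as a rule leaves out reads that match more than 1 feature. The level of any gene here, ribosomal protein genes included, need therefore not be that of its main messenger RNA. Over the 15 libraries, the beta-actin gene *Actb* had 0 to 2 reads a library, *Gapdh* 14 to 41 and *Egr1* 0 to 61. On protein-coding transcripts alone, 21 of 31 were higher and 1 lower (median 0.74). Against PDGF alone, 39 of the 59 were lower and 1 higher with cycloheximide, and 5 were higher and 2 lower with rapamycin. Translation factor genes were higher with rapamycin in 23 of 31 and lower in 2 (median 0.49). Host genes of small nucleolar RNAs were higher in 5 of 7 and lower in 1, among them *Zfas1*, 12.7-fold higher, and *Snhg6* at 32.05 ± 4.11 CPM with rapamycin and 4.83 ± 1.33 CPM with cycloheximide.

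Transcripts annotated as retained intron were shifted as a class. Of 13116 transcripts tested singly, 52.8% were called, 25.9% higher and 26.9% lower with rapamycin. Of 2852 retained-intron transcripts, 36.3% were higher and 8.7% lower, with a median of 0.65, while of 6937 protein-coding transcripts 22% were higher and 38.7% lower, with a median of −0.26. Transcripts annotated for nonsense-mediated decay, a pathway that needs translation, had a median of 0.22 (25.5% higher and 16% lower of 263). Of 35 small nucleolar RNA transcripts, which lie inside introns of their hosts, 51.4% were higher and 2.86% lower.

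In 1032 genes with tested transcripts of both kinds, the retained-intron transcripts had a median log2 change of 0.70 and the protein-coding ones of −0.0096, and the retained-intron value was the higher in 756 (73.3%). In *Sars*, the synthetase gene for serine, the retained-intron transcript averaged 38.5 ± 1.62 CPM with rapamycin and 3.59 ± 0.502 CPM with cycloheximide, and one protein-coding transcript 23.5 ± 3.38 CPM with rapamycin and 11.9 ± 2.24 CPM with cycloheximide. Retained-intron transcripts took 2.39% to 2.66% of the counts of a library with rapamycin, 1.58% to 1.83% with cycloheximide and 2.09% to 2.44% with PDGF alone. Against PDGF alone their median was 0.20 with rapamycin and −0.46 with cycloheximide. Genes whose reads were mostly on retained-intron transcripts (1507) were higher with rapamycin in 40.7% and lower in 10.5%, and genes mostly on protein-coding transcripts (6240) in 24.3% and 38.9%.

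**Figure D4:**
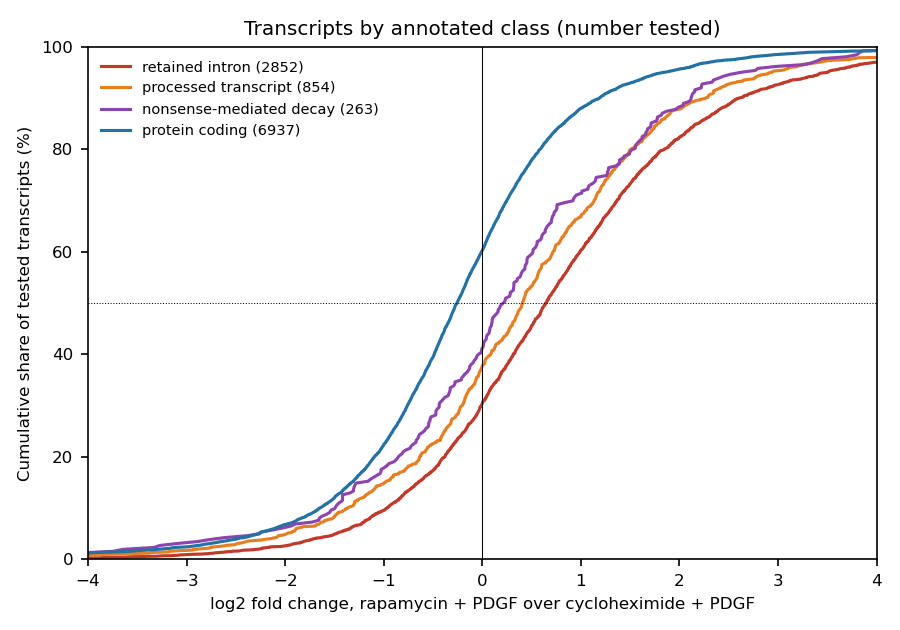
Cumulative share of tested transcripts (y axis, %) by log2 fold change, rapamycin over cycloheximide (x axis), for 4 annotated classes. The curve of the 2852 retained-intron transcripts (red) lies right of that of the 6937 protein-coding ones (blue), with medians of 0.65 and −0.26.

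Sterol synthesis genes were lower with rapamycin. SREBP2, a membrane-bound transcription factor released when sterol is low, drives these genes, and mTORC1 promotes its activity. Of 13 cholesterol synthesis genes tested, 12 were lower with rapamycin and none higher, with a median of −1.93. *Idi1* (ENSMUSG00000058258.14, GRCm38 chromosome 13, 8885501 to 8892451), an enzyme gene of isoprenoid synthesis, had 47.9, 47.4 and 48.7 CPM with rapamycin, against 234, 235 and 266 CPM with cycloheximide and 94.5, 118 and 97.8 CPM with PDGF alone. The treatments did not overlap, with rapamycin below and cycloheximide above PDGF alone, and the drugs differed 5.105-fold (log2 change −2.35 ± 0.10 SE, edgeR adjusted p = 1.13e-28).

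*Insig1*, a target of SREBP that holds its processing back, had 135, 103 and 103 CPM with rapamycin and 2096, 2056 and 2068 CPM with cycloheximide, and was 18.2-fold lower with rapamycin. The sterol carrier gene *Stard4* was 8.71-fold lower. Both belong to a list of sterol control genes, in which 3 of 12 tested were higher with rapamycin and 4 lower. Among the synthesis genes, *Pmvk* was 14.8-fold lower and *Fdps* 8.79-fold (100% of reads on a retained-intron transcript). *Sqle* did not pass the test (edgeR adjusted p = 0.654). Against PDGF alone, 11 of the 13 synthesis genes were lower and none higher with rapamycin (median −1.11), and 10 were higher and none lower with cycloheximide (median 0.69). On protein-coding transcripts alone, 8 of 9 were lower with rapamycin and none higher.

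Fatty acid genes were lower with rapamycin in 6 of 11 and higher in 1. *Scd2*, which desaturates fatty acids, had 976, 1022 and 983 CPM with rapamycin, 3927, 4173 and 4164 CPM with cycloheximide and 3890.3, 4267 and 4155 CPM with PDGF alone. Rapamycin libraries lay below both other groups, which overlapped, and *Scd2* was 4.11-fold lower with rapamycin than with cycloheximide. The elongase gene *Elovl6* was 2.44-fold lower and did not pass the test between cycloheximide and PDGF alone (log2 change 0.00, edgeR adjusted p = 0.976). CCAAT was present in all 9 cholesterol synthesis promoters available, against 37.9% of all promoters and 38.7% of those of tested genes. It was present in 31.9% of promoters of genes at least 2-fold higher with rapamycin and 47.1% of those at least 2-fold lower. The sterol regulatory element, searched as TCACNCCAC on both strands, was present in 1 of the 9 and in 0 of 8 sterol control promoters (1.22% of all promoters). The promoter of *Idi1* is shown with CCAAT, on either strand, in capitals.
Idi1 (GRCm38.p6 chr13:8885356-8885655, strand +): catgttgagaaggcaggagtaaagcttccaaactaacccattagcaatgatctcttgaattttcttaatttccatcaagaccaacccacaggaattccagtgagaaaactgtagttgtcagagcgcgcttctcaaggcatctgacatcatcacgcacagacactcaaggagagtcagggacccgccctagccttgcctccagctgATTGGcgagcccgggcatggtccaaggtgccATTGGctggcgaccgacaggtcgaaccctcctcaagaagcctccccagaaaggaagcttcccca

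Genes of mitosis were lower with rapamycin. Of 17 tested, 13 were lower and none higher, with a median of −0.90. *Bub1b*, a spindle checkpoint kinase gene, had 25.6, 20.6 and 13.1 CPM with rapamycin, against 81.1, 84.7 and 89.3 CPM with cycloheximide, a 4.36-fold difference without overlap. *Cdc20* was 3.31-fold and *Plk1*, a mitotic kinase gene, 3.14-fold lower. Against PDGF alone, 11 were lower and none higher with rapamycin, and 6 were higher and none lower with cycloheximide. Genes of G1 and S phase were lower with rapamycin in 11 of 22 and higher in 3; *Ccne1*, cyclin E1, was 2.99-fold lower and *Cdk6*, a G1 kinase gene, 2.85-fold higher. Genes of CDK inhibitors and p53 targets moved both ways, 8 of 18 higher with rapamycin and 5 lower. The inhibitor gene *Cdkn1a* was 2.59-fold higher with rapamycin at 9.45 ± 2.16 CPM, against 3.705 ± 1.75 CPM with cycloheximide. The inhibitor genes *Cdkn1b* and *Cdkn2c* were 2.47-fold and 2.82-fold lower, *Cdkn1b* with 31.3 ± 1.75 CPM with rapamycin and 77.3 ± 5.64 CPM with cycloheximide.

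Genes of FOXO and quiescence, which the PI3K and AKT arm of growth factor signalling holds down, were lower with rapamycin in 11 of 16 and higher in 2, with a median of −0.78. *Foxo3* had 321, 333 and 362 CPM with rapamycin, against 2008, 1930.0 and 1896 CPM with cycloheximide and 325, 318 and 294 CPM with PDGF alone. Its level with rapamycin was near that with PDGF alone, and it was 5.74-fold lower than with cycloheximide. *Pik3ip1*, an inhibitor of PI3K, was 4.87-fold lower and *Bmf*, which promotes cell death, 15.8-fold. In the list of mTORC1 and PI3K pathway genes, 12 of 32 were lower and 6 higher with rapamycin. *Sesn1*, a leucine sensor gene, was 2.28-fold lower. The insulin receptor substrate genes *Irs1* and *Irs2* were 2.77-fold and 2.26-fold lower, and *Irs1* was also below PDGF alone with rapamycin (log2 change −1.30).

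Chaperone genes moved both ways, 9 of 18 lower with rapamycin and 7 higher. *Dnajb1*, a cochaperone of HSP70, had 27.02, 13.5 and 25.2 CPM with rapamycin and 227, 191 and 219 CPM with cycloheximide, and was 9.57-fold lower. *Hspa1b*, which encodes inducible HSP70, averaged 95.3 ± 7.22 CPM with rapamycin and 552 ± 29.1 CPM with cycloheximide, and was 5.79-fold lower. For both genes the levels with rapamycin were nearer to PDGF alone (16.6 ± 3.16 and 132 ± 2.503 CPM) than those with cycloheximide. Mitochondrially encoded genes were higher with rapamycin in 11 of 12 and lower in none (median 0.77). In collagen and matrix genes 11 of 23 were higher and 6 lower, with the collagen gene *Col1a1* 1.96-fold lower at 2169 ± 88.8 CPM with rapamycin and 4244 ± 199 CPM with cycloheximide.

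Lists of degradation and energy pathways held genes of both directions. Against 56.5% of all genes, 58.3% of lysosome and V-ATPase genes, 54.5% of autophagy genes and 58.8% of glycolysis genes were called between the drugs. The share called was 42.3% for the proteasome, 31.8% for nuclear oxidative phosphorylation and 76.9% for nucleotide and one-carbon synthesis. Lysosome and V-ATPase genes were higher in 4 of 24 and lower in 10 (median −0.38, or −0.241 without rapamycin replicate 3), and autophagy genes higher in 4 of 22 and lower in 8 (median −0.14), including the kinase gene *Ulk1*, 2.05-fold lower. Proteasome genes were higher in 6 of 26 and lower in 5, nuclear genes of oxidative phosphorylation higher in 5 and lower in 9 of 44, and genes of glycolysis higher in 7 and lower in 3 of 17, among them hexokinase 2 (*Hk2*), 3.48-fold higher with rapamycin. Nucleotide and one-carbon synthesis genes were higher in 6 and lower in 4 of 13.

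**Figure D5:**
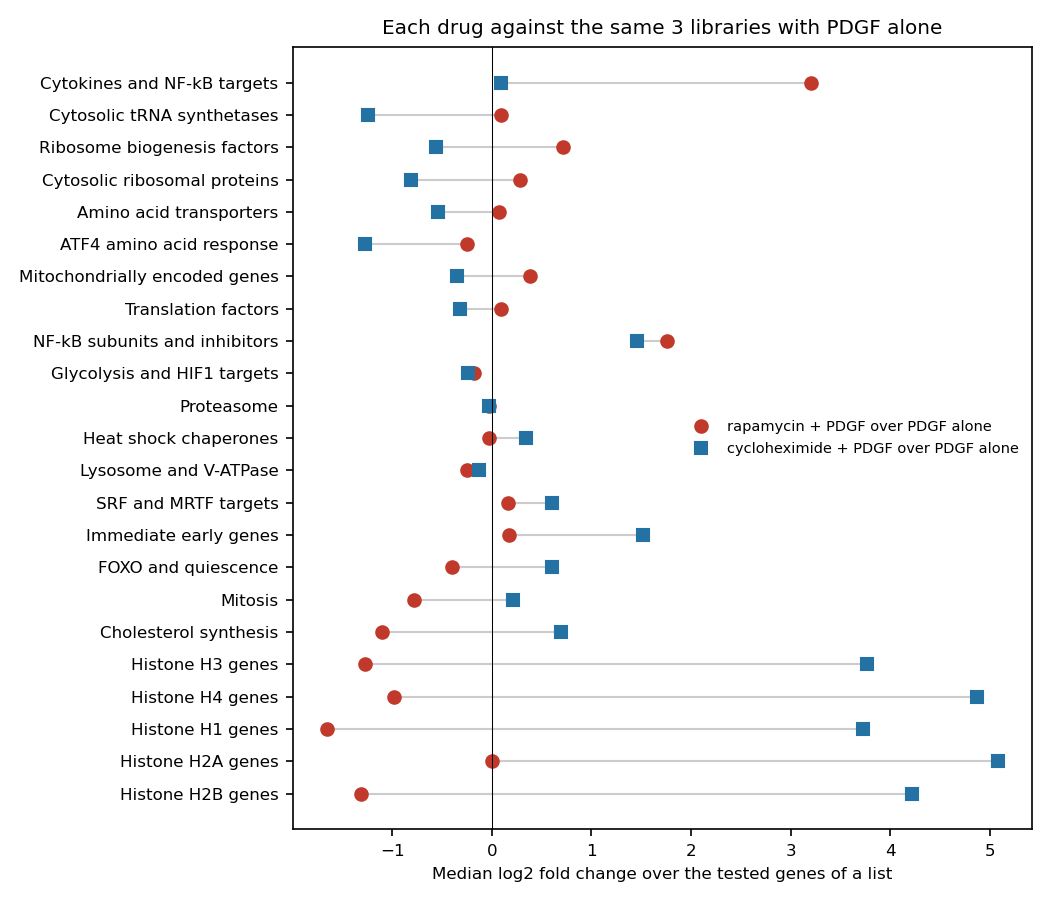
Median log2 fold change (x axis) of the same 23 gene lists (y axis), for rapamycin with PDGF over PDGF alone (red circles) and cycloheximide with PDGF over PDGF alone (blue squares); both use the same 3 libraries of PDGF alone. Rapamycin lies at 3.21 and cycloheximide at 0.10 for cytokines, −1.11 and 0.69 for cholesterol synthesis, and both lie above 0 for NF-kB subunits; the cycloheximide cytokine median and the rapamycin medians of tRNA synthetases, amino acid transporters and translation factors change sign under library-size scaling, and histone values include fitted folds of genes without reads.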

How the data were processed

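RNA-seq of 15 libraries in 5 groups of 3 was used, with the 6 libraries of rapamycin and cycloheximide as the comparison and the 3 of PDGF alone beside them. The deposited values were read counts per mouse Ensembl transcript and library, which the authors made with HISAT2 2.2.1, HTSeq 0.9.1 and R 4.1.0, per the submitters' processing notes. Those notes name a human build, while the identifiers are of mouse. No source used here gives each tool's role or the strand setting, and without strand a gene and its antisense partner share reads.

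Of 142446 transcripts, 141536 were matched to GENCODE on GRCm38 and summed to 55266 genes. The 910 unmatched ones held 0.0309% of the counts. Library totals of the compared groups ran between 3494761 and 5579478 counts, which limits precision for genes of few reads, and intervals cover counting error only. edgeR 4.0.16 (TMM scaling, filter for low counts, robust quasi-likelihood fit over all 5 groups, Benjamini-Hochberg adjustment over 10603 genes) ran in R 4.3.3. In simulated data it recovered 61.5% of genes changed 2-fold and 93.5% of those changed 4-fold. Standard errors are approximate, from the F statistic of each test.

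Genes named were the 12 largest rises and 12 largest falls among called genes above a mean log2 CPM of 1 whose groups did not overlap, up to 3 called members per list, and well-known members, chosen after their values were seen. 1 gene that this rule names is not reported here. All lists and members were chosen with earlier results of these data known. Floors are 3 reads over a group. Alternatives were other scalings, DESeq2 1.42.0, no filter, the compared groups alone, mitochondrial genes left out, each library left out, a replicate block, single transcripts and, added after seeing the data, protein-coding transcripts alone.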

Additional observations from a re-analysis of the deposited data

How the results depend on the processing

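The counts of genes higher and lower between the drugs (2908 and 3080) stayed within 1.5 times under the scalings, DESeq2 (2883 and 2953), no filter (2667 and 3207), the compared groups alone (2709 and 2780) and mitochondrial genes left out (2842 and 3141). Leaving out each library in turn gave 2677 to 2796 higher and 2845 to 2942 lower. On protein-coding transcripts alone, where 6499 genes were tested, 1997 genes were lower between the drugs and 1484 were higher with cycloheximide than with PDGF alone. The labels' replicate numbers name no shared culture, and the replicate block gave 2889 higher and 3076 lower between the drugs. Correlations of same-numbered samples of the drugs lay between −0.00183 and 0.0223, against −0.0275 to 0.0228 for samples of unlike number. Between cycloheximide and PDGF alone they were −0.00149 to 0.076, against −0.0664 to 0.0148 for samples of unlike number. Between rapamycin and PDGF alone they were 0.00475 to 0.0423, against −0.0414 to 0.00227.

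Some list medians between the drugs changed sign, and the cause was not tested. Without the filter, the interferon median was 0.523, proteasome 0.0954, SR and hnRNP −0.00106, YAP −0.122 and matrix proteases 0. On protein-coding transcripts alone, nonsense-mediated decay factors were at −0.183, AU-rich element binding proteins at 0.166 and clock genes at 0.211, and with the compared groups alone nonsense-mediated decay factors at −0.242. Leaving out each library gave −1 to 0.0519 for fatty acid synthesis, −0.125 to 0.0909 for the BCL2 family, −0.119 to 0.124 for nonsense-mediated decay factors, −0.132 to 0.0685 for the proteasome, −0.0768 to 0.113 for glycolysis, −0.055 to 0.114 for nuclear oxidative phosphorylation, −0.218 to 0.112 for interferon, −0.111 to 0.0421 for BMP and TGF-beta regulators, −0.0357 to 0.0771 for clock genes and −0.0246 to 0.15 for YAP targets. Among these, fatty acid synthesis was above 0 only without rapamycin replicate 2. No called gene of the 207 checked changed sign, and 11 missed the threshold under some setting. At these depths, differences in genes of few reads are bounded only by their counting intervals.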

Other observations

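Other gene groups moved in parts. Genes of SOCS proteins and cytokine receptors, which end or receive cytokine signals, were higher with rapamycin in 10 of 15 and lower in 2. *Socs5* averaged 1459 ± 19.6 CPM with rapamycin and 469 ± 24.1 CPM with cycloheximide (SD, n = 3), a 3.11-fold difference (edgeR adjusted p = 2.11e-36), and *Cish*, an inhibitor of STAT5 signalling, was 6.55-fold higher. The gelatinase gene *Mmp9* was 4.83-fold higher at 34.7 ± 3.65 CPM with rapamycin, against 7.14 ± 1.14 CPM with cycloheximide. *Tgif1*, a repressor of TGF-beta targets, was 12.1-fold higher, in a list of BMP and TGF-beta regulators with 8 of 22 higher and 9 lower. Polyamine genes were lower with rapamycin in 6 of 10 and higher in 2, with a median of −0.947 and a lowest log2 change of −1.974. Against that direction, *Odc1*, the rate-limiting enzyme, and *Srm*, which makes spermidine, were 3.101-fold and 2.895-fold higher.

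Clock genes were higher with rapamycin in 4 of 17 and lower in 7. *Nr1d1*, a repressor of the clock loop, averaged 55.7 ± 6.56 CPM with rapamycin and 262 ± 37.8 CPM with cycloheximide, and was 4.67-fold lower, and *Bhlhe41* was 6.68-fold lower. In the unfolded protein response, the sensor kinase genes went opposite ways, with *Ern1* 2.51-fold higher and *Eif2ak3* 3.57-fold lower with rapamycin, in a list with 4 of 21 higher and 9 lower. NRF2 targets were higher in 7 of 14 and lower in 3, among them *Hmox1*, which degrades heme, 1.74-fold higher, and *Fth1*, ferritin heavy chain, 8.29-fold higher with 96.8% of its reads on retained-intron transcripts. Splicing factor genes were higher in 8 of 29 and lower in 9, with *Srsf6* 2.52-fold lower.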
